A study of Canis lupus familiaris with 8 samples.

Results

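The mitochondrially encoded genes of the dog, those carried on the mitochondrial chromosome itself, were taken as every row whose locus lay on chromosome MT, which gave 37 of the 24580 genes tabulated. They were read in messenger RNA libraries of 8 groups with 1 library each, all of adult dogs. These were pituitary of stressed and unexposed Chinese Field Dog (CFD), pituitary of stressed and unexposed Beagle, and adrenal cortex of the same 4 kinds of dog. Stressed animals had undergone chronic stress exposure, and the label "non-disposal" of the others was read here as unexposed. Single dogs and pools are not distinguished by the labels, and neither is a shared origin of both tissues in the same animals. The p-values below therefore describe variation among these libraries, which may be technical. The extraction note in the labels names spleen, while every tissue label names pituitary or adrenal cortex.

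The mitochondrial chromosome is a small circle copied many times in each cell. Its protein genes encode core subunits of the respiratory chain, the set of inner-membrane complexes that passes electrons from nutrients to oxygen, pumps protons and drives ATP synthesis. The remaining genes encode the ribosomal and transfer RNAs that translate them. Both strands are transcribed as long precursors, which are then cut, mostly at the transfer RNAs, so that levels of single messenger RNAs depend on transcription, cutting and decay together. In the adrenal cortex, mitochondria also carry out the first and last steps of glucocorticoid synthesis, while the pituitary cells that make ACTH drive that synthesis from afar.

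Of the 37 rows, 13 carried a gene symbol and all 13 were protein genes. Complex I, the NADH dehydrogenase that feeds electrons into the chain, accounted for 7 of them, listed as MT-ND1, MT-ND2, MT-ND3, MT-ND4L, MT-ND4, ND5 and MT-ND6. Complex III, which hands electrons to cytochrome c, accounted for 1, MT-CYB. Complex IV, the cytochrome c oxidase that reduces oxygen, accounted for 3, listed as COX1, COX2 and COX3, which here are the subunits at MT and not prostaglandin synthases. Complex V, the ATP synthase, accounted for 2, MT-ATP8 and MT-ATP6. The other 24 rows had an Ensembl identifier and no name. Of these, 2 were long, ENSCAFG00000022709 at MT:70-1023 and ENSCAFG00000022711 at MT:1091-2670 in CanFam 3.1, just ahead of MT-ND1 at MT:2747-3842. The remaining 22 were short.

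Reads were caught on the 13 protein genes and the 2 long unnamed rows, and these 15 measured members are described below. Among the 22 short rows, 18 had no read in any library, which allows up to 3 reads in each, and 4 had 1 read at most in any library. A single read in a short row was worth 6313 to 12831 FPKM (reads scaled for gene length and by a library factor). A read in a measured member was worth 0.0331 to 1.76 FPKM. Short rows were therefore left out of counts, medians and shares per length. The files merge the loci of neighbouring genes: MT-ATP8, MT-ATP6 and COX3 share MT:7803-9427, MT-ND4L and MT-ND4 share MT:9911-11647, and ND5 and MT-ND6 share MT:11778-14178. How reads were divided among these 7 members is not stated, nor whether counting used strand, so levels within each merged locus are uncertain. This bears most on MT-ND6, which lies on the strand opposite to ND5. Mammalian nuclear chromosomes hold copies of mitochondrial sequence, and how reads matching both were treated is not given in the sources used here.

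Libraries held 14327357 to 18712041 reads over all genes. Adrenal cortex markers, of which 4 of 5 were found, summed to 11658 to 15592 FPKM in adrenal cortex libraries and 7.99 to 29.6 FPKM in pituitary libraries, with MC2R, the ACTH receptor, at 0 in every pituitary library. All 7 anterior pituitary markers were found, and they summed to 64944 to 142671 FPKM in pituitary and 29.1 to 47.7 FPKM in adrenal cortex. Adrenal medulla markers, all 6 found, were present in the stressed adrenal cortex libraries at 3160 to 4658 FPKM and in the unexposed ones at 3420 to 5492 FPKM. They are not specific to medulla, since they summed to 1319 to 1428 FPKM in stressed and 1515 to 1671 FPKM in unexposed pituitaries. The stressed CFD pituitary stood apart: its 6 cortical neuron markers summed to 637 FPKM, against 2.05 to 4.51 FPKM in the other pituitaries, in which NEUROD6 and TBR1 were at 0. Its 5 glia and myelin markers summed to 546 FPKM, against 35.1 to 113 FPKM. In the unexposed Beagle pituitary the files list GH1 and RRBP1 at 0 and mark them as failed, and GH1 held 5.28% to 5.91% of reads in the other pituitaries.

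Mitochondrial genes took a smaller share of the reads in the pituitary than in the adrenal cortex. In the pituitary they held 7.66% of reads in stressed CFD, 4.55% in unexposed CFD, 5.41% in stressed Beagle and 3.96% in unexposed Beagle. In the adrenal cortex they held 14.5% in stressed CFD, 10.5% in unexposed CFD, 13.9% in stressed Beagle and 10.4% in unexposed Beagle. The tissues did not overlap, and the lowest adrenal library stood above the highest pituitary library. The mean was 5.40% ± 1.62 in pituitary and 12.3% ± 2.14 in adrenal cortex (SD, n = 4 libraries each). The difference of -6.93 percentage points had a two-sided exact permutation p of 0.0286, the smallest that 4 libraries against 4 can give. Counting error is far smaller than these gaps: the 95% Wilson interval of the stressed CFD pituitary share ran from 7.65% to 7.68%. In bulk tissue, fewer cells rich in mitochondrial RNA and less mitochondrial RNA per cell cannot be told apart. Without the stressed CFD pair of libraries the difference was -6.97 points.

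**Figure D1:**
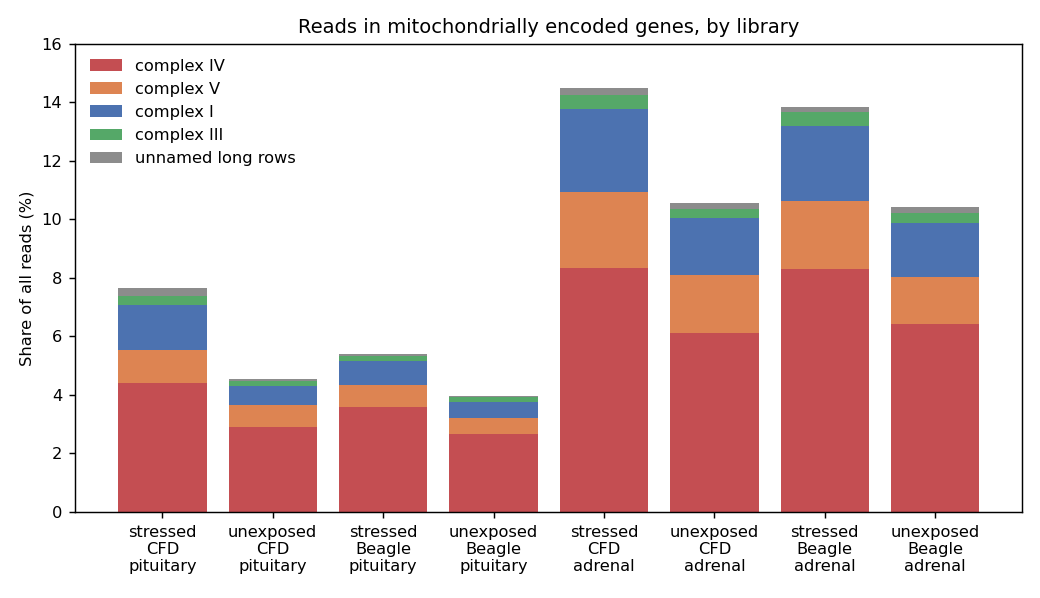
Share of all reads (%, vertical axis) in mitochondrially encoded genes in each of the 8 libraries, stacked by complex, with the 2 long unnamed rows on top. Pituitary libraries reach 3.96% to 7.66%, adrenal cortex libraries 10.4% to 14.5%, and each stressed library stands above its unexposed partner.

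COX1, the catalytic core of complex IV, took more reads than any other member in 8 of 8 libraries. It held 2.31% of all reads in stressed CFD pituitary, 1.45% in unexposed CFD pituitary, 1.94% in stressed Beagle pituitary and 1.48% in unexposed Beagle pituitary. Adrenal COX1 held 3.69% in stressed CFD, 2.64% in unexposed CFD, 4.08% in stressed Beagle and 3.39% in unexposed Beagle. Per length, the 5 complex IV and V genes stood above the 8 complex I and III genes in each library, and MT-ATP8 was highest in 8 of 8 libraries. That rank depends on the length correction: MT-ATP8 stood at 152 ± 9.25 per 100 FPKM of MT-ATP6 in pituitary and 157 ± 4.08 in adrenal cortex (SD, n = 4 each), whereas it held 0.0615% to 0.129% of reads in pituitary and MT-ATP6 held 0.479% to 0.988%. Among the 10 genes with most reads in a library, mitochondrial genes filled 5 places in the stressed CFD pituitary, 4 in each other pituitary and 5 in each adrenal cortex.

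Complex I genes ran from the lowest to the middle of the mitochondrial levels. MT-ND1, a core subunit of the membrane arm, had 3394 FPKM in stressed and 933 in unexposed CFD pituitary, and 1332 in stressed and 754 in unexposed Beagle pituitary. Adrenal MT-ND1 had 8375 FPKM in stressed and 4761 in unexposed CFD, and 8277 in stressed and 5367 in unexposed Beagle. The tissues did not overlap, and the stressed CFD pituitary was well above the other pituitaries. MT-ND2, the next membrane-arm subunit on the map, had 2785 FPKM in stressed and 982 in unexposed CFD pituitary, and 1391 in stressed and 665 in unexposed Beagle pituitary. Adrenal MT-ND2 had 8658 FPKM in stressed and 4671 in unexposed CFD, and 7362 in stressed and 5338 in unexposed Beagle. As for MT-ND1, every adrenal library lay above every pituitary library and every stressed library above its unexposed partner.

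MT-ND3, the small subunit with a loop that shifts between active and resting forms of complex I, had 4821 FPKM in stressed and 2653 in unexposed CFD pituitary, and 2842 in stressed and 1691 in unexposed Beagle pituitary. Adrenal MT-ND3 reached 17089 FPKM in stressed and 9361 in unexposed CFD, and 13780 in stressed and 8234 in unexposed Beagle, so the tissues did not overlap. MT-ND4L and MT-ND4, membrane-arm subunits whose reading frames lie on 1 messenger, had near-equal levels per length. MT-ND4L had 4801 FPKM in stressed and 2003 in unexposed CFD pituitary, and 2470 in stressed and 1741 in unexposed Beagle pituitary. Adrenal MT-ND4L had 9426 FPKM in stressed and 5937 in unexposed CFD, and 7768 in stressed and 5421 in unexposed Beagle. MT-ND4 followed it closely, with 5169 FPKM in stressed and 2067 in unexposed CFD pituitary, and 2610 in stressed and 1809 in unexposed Beagle pituitary. Adrenal MT-ND4 had 9579 FPKM in stressed and 6027 in unexposed CFD, and 7675 in stressed and 5468 in unexposed Beagle.

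ND5 and MT-ND6 were the lowest protein genes. ND5, another proton-pumping subunit, had 846 FPKM in stressed and 405 in unexposed CFD pituitary, and 513 in stressed and 398 in unexposed Beagle pituitary. Adrenal ND5 had 1203 FPKM in stressed and 1171 in unexposed CFD, and 1432 in stressed and 1186 in unexposed Beagle. Of the adrenal libraries, the stressed Beagle one was set apart and the other 3 were close together. MT-ND6, which is read from the opposite strand to all the other protein genes, had 877 FPKM in stressed and 473 in unexposed CFD pituitary, and 614 in stressed and 483 in unexposed Beagle pituitary. Adrenal MT-ND6 had 1196 FPKM in stressed and 1294 in unexposed CFD, and 1565 in stressed and 1304 in unexposed Beagle. The tissues did not overlap for either gene.

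MT-CYB, the cytochrome b of complex III, had 2982 FPKM in stressed and 1472 in unexposed CFD pituitary, and 1612 in stressed and 1308 in unexposed Beagle pituitary. Adrenal MT-CYB had 5659 FPKM in stressed and 3211 in unexposed CFD, and 5316 in stressed and 3632 in unexposed Beagle. The gap between the tissues was narrow here, with the stressed CFD pituitary close below the unexposed CFD adrenal cortex.

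The 3 complex IV genes had high and similar levels. COX1 had 15769 FPKM in stressed and 9031 in unexposed CFD pituitary, and 12530 in stressed and 9016 in unexposed Beagle pituitary. Adrenal COX1 had 31086 FPKM in stressed and 19601 in unexposed CFD, and 32972 in stressed and 26731 in unexposed Beagle. COX1 was the complex IV gene in which the adrenal libraries of the unexposed breeds were furthest apart. COX2, which takes electrons from cytochrome c, had 18465 FPKM in stressed and 10972 in unexposed CFD pituitary, and 13927 in stressed and 9552 in unexposed Beagle pituitary. Adrenal COX2 had 53294 FPKM in stressed and 33133 in unexposed CFD, and 42224 in stressed and 31652 in unexposed Beagle. COX3, a core subunit with no metal centre, had 16251 FPKM in stressed and 10677 in unexposed CFD pituitary, and 12088 in stressed and 7829 in unexposed Beagle pituitary. Adrenal COX3 had 42273 FPKM in stressed and 29291 in unexposed CFD, and 40355 in stressed and 26914 in unexposed Beagle. For all 3, no pituitary library reached an adrenal one.

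Complex V genes encode the proton channel side of the ATP synthase. MT-ATP6, the subunit that conducts protons to the rotor, had 17897 FPKM in stressed and 11049 in unexposed CFD pituitary, and 11953 in stressed and 7762 in unexposed Beagle pituitary. Adrenal MT-ATP6 had 51327 FPKM in stressed and 34310 in unexposed CFD, and 44037 in stressed and 29950 in unexposed Beagle. MT-ATP8, a short subunit of the stator, had 26216 FPKM in stressed and 15736 in unexposed CFD pituitary, and 18943 in stressed and 12546 in unexposed Beagle pituitary. Adrenal MT-ATP8 had 77801 FPKM in stressed and 53605 in unexposed CFD, and 70883 in stressed and 47643 in unexposed Beagle. The tissues were separated for both genes.

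The 2 long unnamed rows behaved less uniformly. What they encode is not stated in the sources used here, and how evenly libraries made for messenger RNA caught them was not tested. ENSCAFG00000022709 had 1834 FPKM in stressed and 516 in unexposed CFD pituitary, and 435 in stressed and 282 in unexposed Beagle pituitary. Its adrenal levels were 2408 FPKM in stressed and 1537 in unexposed CFD, and 1720 in stressed and 2125 in unexposed Beagle. The stressed CFD pituitary lay inside the adrenal range. ENSCAFG00000022711 had 742 FPKM in stressed and 198 in unexposed CFD pituitary, and 193 in stressed and 114 in unexposed Beagle pituitary. Its adrenal levels were 610 FPKM in stressed and 439 in unexposed CFD, and 510 in stressed and 533 in unexposed Beagle, so the stressed CFD pituitary was above all 4 adrenal libraries.

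**Figure D2:**
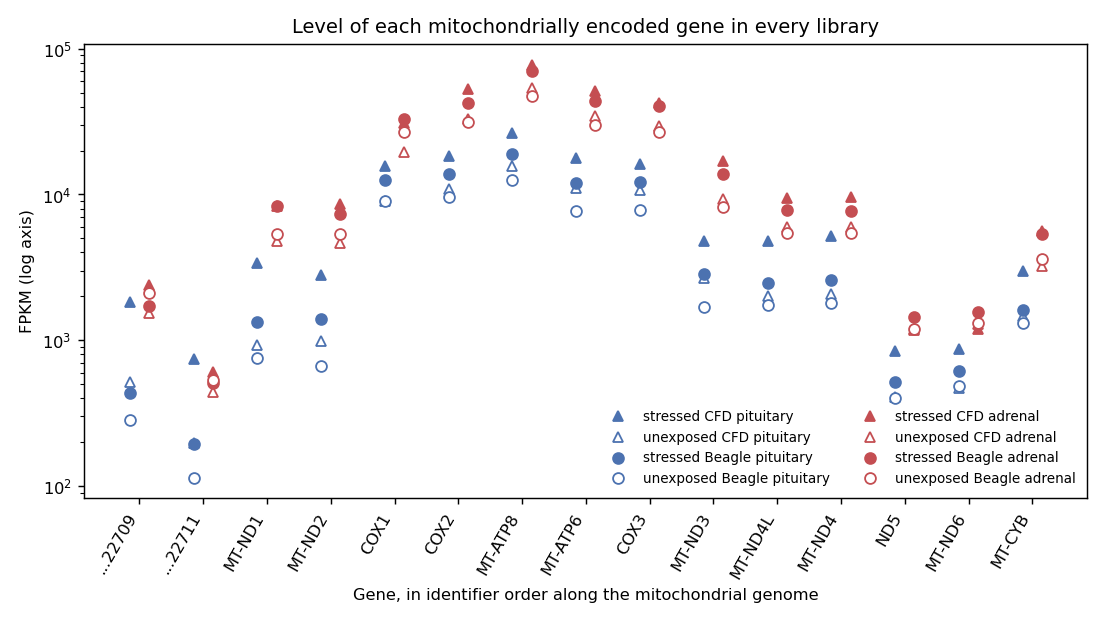
FPKM (log axis) of the 15 measured members in every library, in identifier order along the mitochondrial chromosome. Triangles are CFD, circles Beagle, filled symbols stressed, open symbols unexposed, blue pituitary and red adrenal cortex. Complex IV and V genes in the middle are highest, and the 2 long unnamed rows with ND5 and MT-ND6 are lowest.

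Tested gene by gene, 14 of the 15 measured members were lower in pituitary than in adrenal cortex at an adjusted p under 0.05 (limma on 4 pituitary over adrenal log2 ratios of FPKM + 1, Benjamini-Hochberg over 14808 genes). Over all genes 30.2% were called lower. The median log2 ratio was -1.59 over the members and -0.00104 over all genes tested. MT-ND2 and MT-ND1 had the widest differences, with log2 ratios of -2.32 ± 0.23 (SE, adjusted p = 0.00132) and -2.28 ± 0.28 (adjusted p = 0.00231). MT-ND3 followed at -2.05 ± 0.13 (adjusted p = 0.000376). Complex V was intermediate, with MT-ATP8 at -1.79 ± 0.10 (adjusted p = 0.000271) and MT-ATP6 at -1.75 ± 0.11 (adjusted p = 0.000371).

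COX2 and COX3 fell by 1.61 ± 0.08 and 1.59 ± 0.11 on the log2 scale in pituitary (adjusted p = 0.000217 and 0.000445), and COX1 fell by 1.27 ± 0.13 (adjusted p = 0.00132). MT-ND4L and MT-ND4 fell by 1.46 ± 0.15 and 1.40 ± 0.15 (adjusted p = 0.00134 and 0.00166). The smallest called differences among protein genes were in MT-CYB at -1.31 ± 0.16, ND5 at -1.27 ± 0.21 and MT-ND6 at -1.17 ± 0.20, with limma adjusted p-values of 0.00223, 0.00627 and 0.00701. All 13 protein genes were lower in pituitary in 4 of 4 pairs, against 35.7% of all genes and 60.8% of the 1025 genes with a mean of at least 100 FPKM.

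ENSCAFG00000022709 was called lower at -1.71 ± 0.42 (adjusted p = 0.0207), and ENSCAFG00000022711 was the member not called, at -1.12 ± 0.42 (adjusted p = 0.0711). The log2 ratio of ENSCAFG00000022711 was 0.28 in the stressed CFD pair and -1.15 to -2.22 in the others. Without the stressed CFD pair it passed, at -1.59 with a limma adjusted p of 0.00916, and all 15 members were then called. The call of ENSCAFG00000022709 was lost without the stressed Beagle pair (adjusted p = 0.0838), the unexposed Beagle pair (adjusted p = 0.0506) or the unexposed CFD pair (adjusted p = 0.0729). Counted within single pairs, which carry no test, at least 2-fold lower levels in pituitary were found for 15 members in stressed Beagle, 15 in unexposed Beagle, 7 in stressed CFD and 15 in unexposed CFD. The same fold was passed downwards by 12.8%, 14%, 15.3% and 11.9% of all genes in those 4 pairs. In the stressed CFD pair the pituitary library was the one with neuron and glia markers, and their part in the result was not tested.

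**Figure D3:**
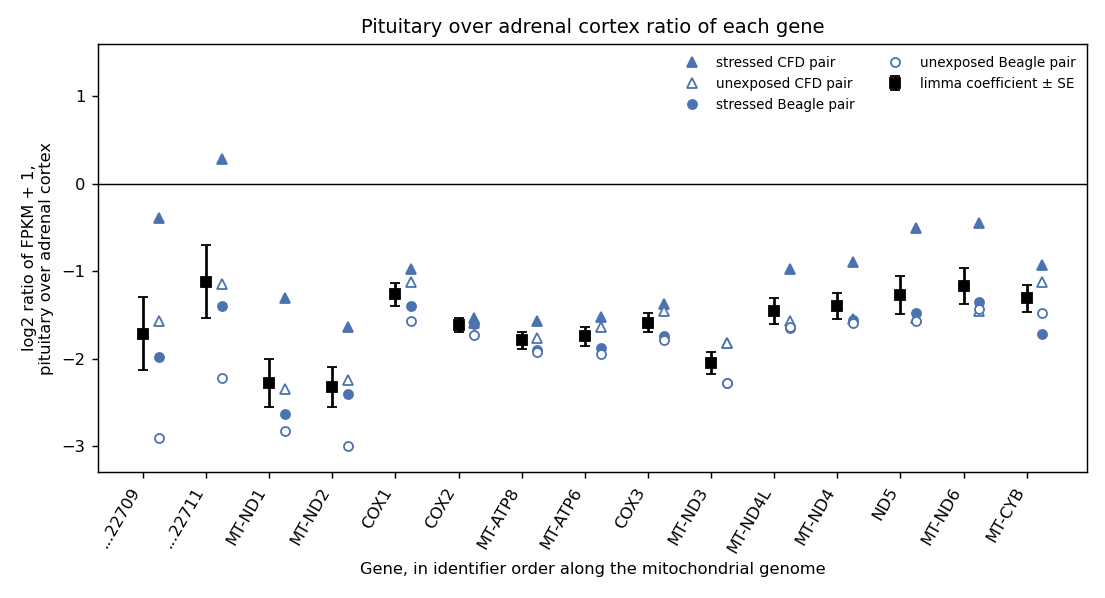
Pituitary over adrenal cortex log2 ratio of FPKM + 1 for each measured member, for the 4 pairs matched on breed and exposure (coloured symbols) with the limma coefficient ± SE (black squares). Members lie between -1.12 and -2.32 by coefficient, and the stressed CFD pair is the nearest to 0 for most members.

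The make-up of mitochondrial messenger RNA was compared between the tissues on the FPKM scale, as a share of the 13 protein genes, and no difference passed after adjustment. The exact permutation test set 4 libraries against 4 without matching on breed and exposure, and its smallest possible p is 0.0286 here. Over 9 quantities, 1 alone could not pass even with no overlap, so the lack of a pass says little. Complex I made up 18.9% in stressed CFD, 13.9% in unexposed CFD, 14.2% in stressed Beagle and 13.6% in unexposed Beagle pituitary. Adrenal complex I made up 17.5% in stressed CFD, 16.1% in unexposed CFD, 16.9% in stressed Beagle and 16.3% in unexposed Beagle. Except in the stressed CFD pituitary, its pituitary share lay below every adrenal share. The means were 15.1% ± 2.50 in pituitary and 16.7% ± 0.648 in adrenal cortex (SD, n = 4 each, exact permutation p = 0.257). Complex III averaged 2.23% ± 0.234 in pituitary and 1.76% ± 0.141 in adrenal cortex (exact permutation p = 0.0286, adjusted p = 0.103 over 9 quantities), and by reads instead of FPKM its exact permutation p was 0.0857. Complex IV averaged 45.2% ± 2.43 in pituitary and 40.8% ± 1.44 in adrenal cortex, and complex V 37.4% ± 1.19 in pituitary and 40.7% ± 1.47 in adrenal cortex (exact permutation p = 0.0571, adjusted p = 0.103 for both). By reads, complex IV averaged 64.8% and 60.3%, and complex V 15.0% and 17.5% (exact permutation p = 0.0857 and 0.0571). Complex V without MT-ATP8 averaged 19.2% and 21.1% by FPKM (exact permutation p = 0.0857).

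Set against COX1, MT-ND1 and MT-ND2 had lower mean values in pituitary than in adrenal cortex, which did not pass after adjustment, under the same limit. MT-ND1 stood at 21.5 per 100 FPKM of COX1 in stressed CFD, 10.3 in unexposed CFD, 10.6 in stressed Beagle and 8.36 in unexposed Beagle pituitary. Adrenal values were 26.9 in stressed CFD, 24.3 in unexposed CFD, 25.1 in stressed Beagle and 20.1 in unexposed Beagle. Only the stressed CFD pituitary reached the adrenal range of MT-ND1. MT-ND2 averaged 11.8 ± 4.29 per 100 FPKM of COX1 in pituitary and 23.5 ± 3.31 in adrenal cortex with no overlap (SD, n = 4 each, exact permutation p = 0.0286, adjusted p = 0.103). Both ratios were higher in the stressed library in 4 of 4 pairs, a two-sided sign-flip permutation p of 0.125, the smallest that 4 pairs can give. The ratios were also higher in CFD than in Beagle in 4 of 4 pairs at the same p. In unexposed adrenal cortex the genes themselves were lower in CFD, at 4761 against 5367 FPKM for MT-ND1 and 4671 against 5338 for MT-ND2. COX1, to which they were set, was also lower there, at 19601 against 26731 FPKM.

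**Figure D4:**
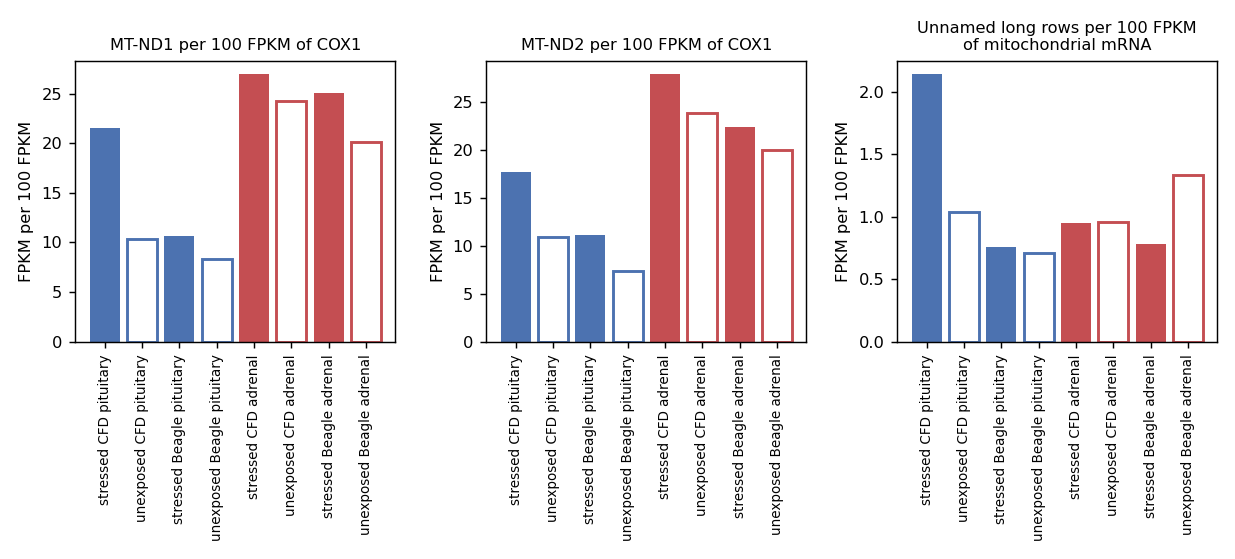
MT-ND1 and MT-ND2 per 100 FPKM of COX1, and the 2 long unnamed rows per 100 FPKM of mitochondrial messenger RNA, in each library. Filled bars are stressed and open bars unexposed, blue pituitary and red adrenal cortex. MT-ND1 reaches 21.5 in the stressed CFD pituitary and 8.36 to 10.6 in the other pituitaries.

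Stressed libraries held a larger share of mitochondrial reads than their unexposed partners in 4 of 4 pairs. Stressed over unexposed, the share was 1.68-fold in CFD pituitary, 1.37-fold in Beagle pituitary, 1.37-fold in CFD adrenal cortex and 1.33-fold in Beagle adrenal cortex. The mean difference was 2.98 ± 1.07 percentage points (SD, n = 4 pairs, two-sided exact sign-flip permutation p = 0.125). A sign-flip test over 4 pairs cannot give a smaller p. Without the CFD pituitary pair it was 2.93 points over 3 pairs. With GH1 and RRBP1 left out of every library, the Beagle pituitary shares were 5.72% in the stressed and 3.96% in the unexposed library.

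By complex, summed FPKM of complex I was 2.39-fold in stressed over unexposed CFD pituitary, 1.56-fold in Beagle pituitary, 1.67-fold in CFD adrenal cortex and 1.48-fold in Beagle adrenal cortex. Complex IV stood at 1.65-fold, 1.46-fold, 1.54-fold and 1.35-fold in those pairs. For complex V the folds were 1.65, 1.52, 1.47 and 1.48, the most even of the complexes over the 4 pairs. Complex III, which is MT-CYB alone, was at 2.03-fold, 1.23-fold, 1.76-fold and 1.46-fold. The share of complex I within mitochondrial messenger RNA was higher in stressed libraries in 4 of 4 pairs (exact sign-flip permutation p = 0.125). Its gap was 4.97 percentage points in CFD pituitary and at least 0.62 in each pair.

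No member passed the test for stress: limma called 0 of 15 in the adrenal cortex and 0 of 15 in the pituitary, where 0.00675% of all genes were called higher in each tissue. All 15 coefficients were above 0 in both tissues, with a median log2 ratio of 0.56 in adrenal cortex and 0.71 in pituitary, against 0 and -0.01 over all genes. At an unadjusted limma p under 0.05 there were 8 of 15 members in adrenal cortex, against 2.98% of all genes. In pituitary there were 15 of 15, against 4.47% of all genes, and the lowest adjusted p was 0.881. A fit with 1 coefficient over both tissues, added after seeing the data, gave a median of 0.67 with 11 members at an unadjusted p under 0.05, against 3.77% of all genes, and 0 called. With edgeR 0 members were called in each of these fits, while DESeq2 called 1 in adrenal cortex, 7 in pituitary and 11 over both. Of all 14808 genes, DESeq2 called 10, 64 and 26 in those fits.

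Within pairs, 12 of 15 members were higher in the stressed library in 4 of 4 pairs, against 5.77% of all genes and 6.83% of genes with a mean of at least 100 FPKM. The 3 exceptions were ENSCAFG00000022709, ENSCAFG00000022711 and MT-ND6. Log2 ratios of ENSCAFG00000022709 were 1.83 in CFD pituitary, 0.62 in Beagle pituitary, 0.65 in CFD adrenal cortex and -0.31 in Beagle adrenal cortex. Those of ENSCAFG00000022711 were 1.90, 0.75, 0.47 and -0.06 in the same pairs, and those of MT-ND6 were 0.89, 0.35, -0.11 and 0.26. ND5 was near the line in CFD adrenal cortex, with a log2 ratio of 0.04 by FPKM. Yet it held 0.171% of reads in the stressed library and 0.189% in the unexposed one. The FPKM of ND5 follows the authors' size factor of each library and the share its total reads, so the direction can differ. The widest counting error of any such ratio was 0.07 (half-width of a 95% Clopper-Pearson interval), and counting error covers sampling of reads only.

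COX3 gave the most even ratios, at 0.61 in CFD pituitary, 0.63 in Beagle pituitary, 0.53 in CFD adrenal cortex and 0.58 in Beagle adrenal cortex. MT-ND3, at 0.86, 0.75, 0.87 and 0.74 in those pairs, and MT-ATP6, at 0.70, 0.62, 0.58 and 0.56, were nearly as even. MT-ATP8 gave 0.74, 0.59, 0.54 and 0.57. These MT-ATP8 ratios depend on the FPKM scaling, since its FPKM per read varied between libraries apart from the size factor. A read of it was worth 1.41 FPKM in stressed and 1.76 in unexposed Beagle adrenal cortex, at size factors of 1.01 and 1.12. For COX1 the ratios were 0.80, 0.47, 0.67 and 0.30, and for COX2 they were 0.75, 0.54, 0.69 and 0.42, higher in both CFD pairs than in either Beagle pair.

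The CFD pituitary pair differed from the others at the ends of the map. Its log2 ratios were 1.86 for MT-ND1 and 1.50 for MT-ND2, then 0.61 to 0.86 from COX1 to MT-ND3, and 1.26 for MT-ND4L, 1.32 for MT-ND4, 1.06 for ND5, 0.89 for MT-ND6 and 1.02 for MT-CYB. At least 2-fold higher levels were found for 8 of 15 members in this pair, where 7.85% of all genes passed that fold. In Beagle pituitary 1 member passed it, MT-ND2 at 1.06, where 1.26% of all genes did. In adrenal cortex 0 of 15 passed it in either breed, where 0.99% of all genes did in CFD and 0.83% in Beagle. The stressed library of the CFD pituitary pair was the one with 637 FPKM of neuron markers, against 2.83 FPKM in its unexposed partner, and their part in the result was not tested. Adrenal medulla markers summed to less in the stressed than in the unexposed adrenal cortex of both breeds, at 3160 against 3420 FPKM in CFD and 4658 against 5492 FPKM in Beagle, and their part was likewise not tested.

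**Figure D5:**
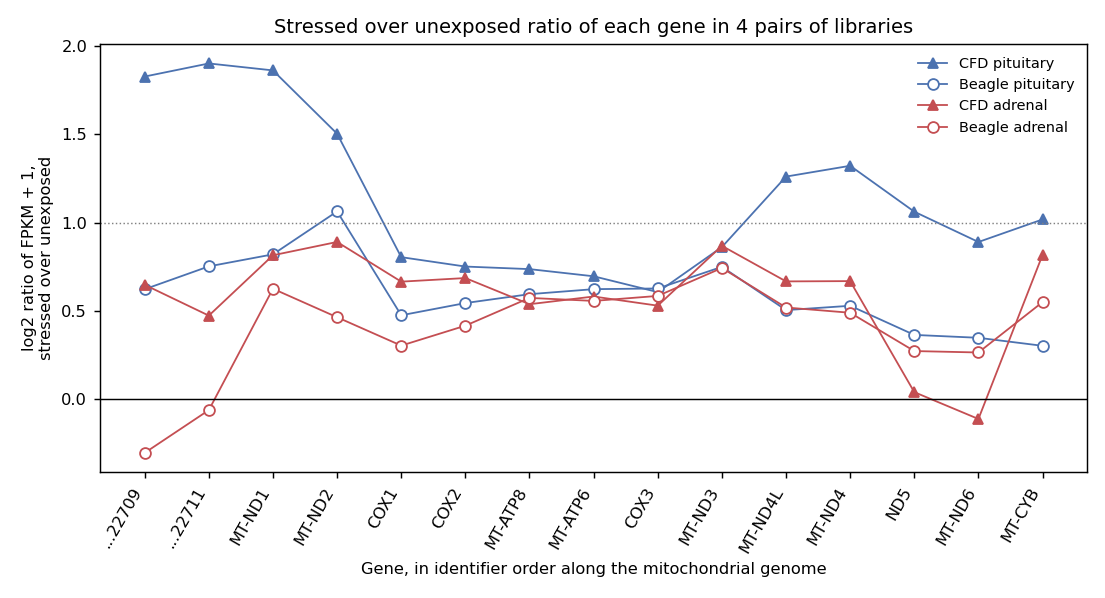
Stressed over unexposed log2 ratio of FPKM + 1 of each measured member, in identifier order along the mitochondrial chromosome, for 4 pairs of libraries. The dotted line is a 2-fold difference. The CFD pituitary pair reaches 1.90 at the left end and 1.32 at MT-ND4, and all 4 pairs come together between 0.53 and 0.87 from MT-ATP8 to MT-ND3. For MT-ATP8 this rests on FPKM, whose worth per read varied between libraries apart from the size factor.

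The stress effect was not shown to differ between the tissues. The contrast of pituitary minus adrenal coefficients had 0 of 15 members called by limma, edgeR or DESeq2, where 0.00675% of genes were called higher. Its median was 0.29 log2 units. At an unadjusted p under 0.05 there were 0 members by limma, 1 by edgeR and 3 by DESeq2. Of all genes, 3.55%, 4.76% and 3.96% were under it in those fits.

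The authors' deposited table, which tests single libraries against each other, gave an FDR of 0.0141 to COX1, MT-ATP8, MT-ATP6 and COX3 for stress in Beagle adrenal cortex. It gave the same value to MT-ATP8, MT-ATP6 and COX3 for stress in CFD adrenal cortex. Breed comparisons in the authors' deposited table marked 4 members in stressed and 3 in unexposed adrenal cortex, again from these 4 genes, and 0 in either pituitary comparison. In the stressed comparison COX1 was lower in CFD, at 31086 against 32972 FPKM, and the other marked genes were higher. COX2, at 53294 against 42224 FPKM, was not marked there (authors' deposited FDR = 0.999). The share of all genes marked in these comparisons is not given here. For stress in pituitary the lowest FDR of a member in the authors' deposited table was 0.957 in CFD and 0.999 in Beagle.

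No member was called for breed in either tissue by limma, and the breed effect was not shown to differ between the tissues. The mitochondrial share was higher in CFD than in Beagle in 4 of 4 pairs, by 1.42-fold in stressed pituitary, 1.15-fold in unexposed pituitary, 1.04-fold in stressed adrenal cortex and 1.01-fold in unexposed adrenal cortex. The mean difference was 0.892 ± 0.936 percentage points (SD, n = 4 pairs, exact sign-flip permutation p = 0.125), less than its own SD. Without the stressed pituitary pair it was 0.439 points. As a share of summed FPKM, CFD was higher in 3 of 4 pairs (exact sign-flip permutation p = 0.375).

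Limma called 0 of 15 members for breed in adrenal cortex, where 0.027% of all genes were called higher, and 0 of 15 in pituitary, where 0.00675% were. Adrenal coefficients were above 0 for 9 of 15 members with a median log2 ratio of 0.02, and 0 had an unadjusted p under 0.05, against 6.48% of all genes. Pituitary coefficients were above 0 for 15 of 15 with a median of 0.55, and 8 had an unadjusted p under 0.05, against 7.93% of all genes. DESeq2 called 6 members in pituitary and 0 in adrenal cortex, and edgeR called 0 in both. Of all 14808 genes, DESeq2 called 221 in pituitary and 98 in adrenal cortex, and edgeR 3 and 0. The contrast of pituitary minus adrenal breed coefficients, added after seeing the data, had a median of 0.44 log2 units and 0 of 15 members called by limma, edgeR or DESeq2, where limma called 0.00675% of all genes higher. At an unadjusted p under 0.05 there was 1 member by limma, 2 by edgeR and 5 by DESeq2, against 5%, 6.09% and 4.87% of all genes. Without the unexposed pituitary pair the limma number was 8, against 15.5% of all genes in that fit, with 0 called. It was 0 without the stressed pituitary pair and without either adrenal cortex pair. Higher levels in CFD in 4 of 4 pairs were found for 7 of 15 members, against 8.34% of all genes. These were COX2, MT-ATP8, MT-ATP6, COX3, MT-ND3, MT-ND4L and MT-ND4, which are neighbours on the map among the measured members. COX1 was the member with the lowest adrenal values in CFD relative to Beagle among complex IV genes, at log2 ratios of -0.08 in stressed and -0.45 in unexposed libraries. The pituitary medians were 0.76 in the stressed pair, which holds the library with neuron markers, and 0.31 in the unexposed pair. The part of those markers in the breed difference was not tested.

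Nuclear genes that serve the same complexes were read beside the mitochondrial ones. Among 51 tested nuclear subunits of complexes I, III, IV and V, 45 were lower and 1 higher in pituitary than in adrenal cortex (limma, Benjamini-Hochberg over all genes), against 30.2% and 28.4% of all genes. Their median log2 ratio was -0.65, against -1.59 for the mitochondrial members. The widest were NDUFA4L2, a hypoxia-inducible relative of a complex IV subunit, at -2.25 ± 0.20, the cytochrome c1 gene CYC1 at -1.60 ± 0.10 and NDUFB11 at -1.37 ± 0.07 (adjusted p = 0.000921, 0.00042 and 0.000268). The gene called higher was COX7A2L, which helps join complexes III and IV, at 0.61 ± 0.11 (adjusted p = 0.00812). Complex II has no mitochondrially encoded subunit, and its 3 tested genes were called lower, SDHC at -1.83, SDHB at -1.20 and SDHA at -0.67.

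Mitochondrial messenger RNA outweighed the summed FPKM of 52 nuclear subunit genes by 15.2-fold in stressed CFD, 10.2-fold in unexposed CFD, 12.2-fold in stressed Beagle and 8.69-fold in unexposed Beagle pituitary. Adrenal ratios were 22.6 in stressed CFD, 18.8 in unexposed CFD, 26.4 in stressed Beagle and 17.4 in unexposed Beagle. The ratio was higher in every stressed library than in its unexposed partner. For stress the nuclear subunits had 0 limma calls in either tissue. Their median log2 ratios were 0.13 in adrenal cortex and 0.15 in pituitary, and 45 and 42 of 51 had a coefficient above 0. The 3 most abundant had stress log2 ratios of 0.11 in adrenal cortex and 0.12 in pituitary for UQCR10, 0.03 and 0.26 for the ATP synthase beta subunit gene ATP5B, and 0.17 and 0.20 for COX7B2. None of the 3 passed the test.

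Genes that read, process and maintain mitochondrial nucleic acids, and regulators of mitochondrial content, are set here against the 30.2% of all genes called lower and the 28.4% called higher in pituitary. Of 17 tested genes for mitochondrial RNA processing, stability and decay, 12 were called lower and 0 higher, among them PNPT1, a ribonuclease, at -1.16 ± 0.09, LRPPRC, which stabilises mitochondrial messengers, at -1.15 ± 0.12 and FASTK at -1.10 ± 0.08 (limma adjusted p = 0.000745, 0.00154 and 0.000509). Of 9 tested genes for mitochondrial transcription and DNA upkeep, 4 were called lower and 0 higher, and 2 of the 9 had a coefficient above 0. The 4 were the polymerase subunit POLG2 at -1.27, the transcription factor TFB2M at -1.25, the elongation factor TEFM at -0.52 and the nuclease MGME1 at -0.29. TFAM, which packages mitochondrial DNA, was not called and had 15.4 to 23.6 FPKM in pituitary and 18.0 to 27.8 FPKM in adrenal cortex. Of 8 regulators of mitochondrial content, 3 were called higher and 3 lower, with a median log2 ratio of -0.05. The 3 widest were ESRRG at 2.09 ± 0.11, the coactivator PPARGC1A at 1.12 ± 0.17 and NRF1 at 0.55 ± 0.11, all higher in pituitary (limma adjusted p = 0.00024, 0.00428 and 0.00967).

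The 5 tested genes for mitochondrial steps of steroid synthesis had the widest tissue difference of these lists, with a median log2 ratio of -5.79 and all 5 called lower in pituitary. CYP11A1, the side-chain cleavage enzyme, was at -9.33, STAR, which brings cholesterol into the mitochondrion, at -9.06, the electron carrier FDX1 at -5.79, its reductase FDXR at -4.49 and TSPO at -2.44. Neither these genes nor any other nuclear list had a limma call for stress or breed in either tissue.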

How the data were processed

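The TruSeq kit was used for messenger RNA libraries, per the labels, and TopHat (version not stated) and CanFam 3.1 are named in the submitters' processing notes. The counting program and annotation are not given in the sources used here. The 8 deposited tables each set 2 libraries side by side, and columns of 1 library agreed exactly wherever repeated (16 of 16 comparisons). The authors' count columns are a signal, reads divided by a size factor of 0.899 to 1.17 units per read; 99.5% to 99.6% of low values became whole within 0.02 when this was undone, and recovered reads gave shares with 95% Wilson intervals. In 2 libraries the factor was near 1, and their reads are near the true counts rather than exact. The authors' FPKM values are corrected for gene length, but between libraries they mostly follow the size factor and not the total reads. For MT-ATP8 the worth of a read also varied apart from the size factor. It was 1.34 FPKM in stressed CFD pituitary and 1.57 in stressed Beagle pituitary, at 1.02 and 0.923 units per read. A COX1 read was worth 0.0517 FPKM in stressed and 0.0397 in unexposed CFD adrenal cortex. The units per read there were 1.17 and 0.899, and the total reads 16289185 and 18712041. Ratios of FPKM and shares of reads are therefore on different scales. Deposited p-values and FDR come from the authors' own tests. Columns of per-sample values not used numbered 0.

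Log2(FPKM + 1) ratios of matched libraries, over genes with a mean of at least 1 FPKM, entered limma 3.58.1 (R 4.3.3), with 4 ratios per question and 2 or 3 residual degrees of freedom. Fold changes on this scale understate low genes. Adjustment followed Benjamini and Hochberg across every gene tested, at a threshold of 0.05. Breeds thus served as replicates for stress and exposures for breed. Alternatives were edgeR 4.0.16 and DESeq2 1.42.0 on recovered reads, a pseudocount of 0.1, no filter, centred ratios, a filter on reads, 1 fit per tissue and leaving out each pair. Shares were compared by exact permutation tests, two-sided. The code was tested on simulated data. Every protein gene and long row at MT was named, and of each nuclear list the called genes (the 3 widest where over 5) or else the 3 most abundant. TFAM, and the tissue comparison of COX7A2L, were named after their values were seen. The members, lists and tests were chosen with earlier results of these data known. Sequences were not used here.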

Additional observations from a re-analysis of the deposited data

Results flagged for a closer look

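In 4 of 42 sets of 4 libraries examined, 1 library stood far from the other 3, measured as its gap to the nearest library over the whole range. Chance alone marks about 1 in 20 such sets.

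In pituitary, the stressed CFD library was the highest for ENSCAFG00000022709, at 1834 FPKM against 282 to 516 FPKM in the others (gap ratio 0.849). The same library was the highest for ENSCAFG00000022711, at 742 FPKM against 114 to 198 FPKM (gap ratio 0.867). It also had the largest share of complex I within mitochondrial messenger RNA, 18.9% against 13.6% to 14.2% (gap ratio 0.879). This is the library whose cortical neuron markers summed to 637 FPKM, and their part in these 3 values was not tested.

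In adrenal cortex, the stressed Beagle library was the highest for ND5, at 1432 FPKM against 1171 to 1203 FPKM in the others (gap ratio 0.877). The levels of ND5 and MT-ND6 are uncertain, since their loci are merged in the files.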

How the results depend on the processing

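No paired analysis was possible because each group holds 1 library, so a block on replicate numbers could not be fitted. Libraries were instead matched on breed, tissue and exposure in the limma ratios and in the sign-flip tests of stress and breed. Tissue differences in the mitochondrial share and in the make-up of mitochondrial messenger RNA were tested unmatched. The mitochondrial share was lower in pituitary in 4 of 4 matched pairs. A sign-flip test over 4 pairs cannot go below 0.125, for the share or for the make-up. The tissue difference in mitochondrial share lay between -7.69 and -6.43 percentage points when single pairs or the stressed CFD pituitary were left out. With 3 libraries against 3 its exact permutation p was 0.1, the smallest possible. Leaving out a pair gave 2.66 to 3.49 points for stress and 0.439 to 1.15 points for breed, 13 to 15 members called for tissue, and 0 for stress and breed. DESeq2 called 1 member for stress in adrenal cortex, 7 for stress in pituitary, 6 for breed in pituitary and 11 for stress over both tissues. Its calls over all 14808 genes were 10, 64, 221 and 26. Limma and edgeR called 0 members there, and the cause was not tested. Sign changes occurred in 3 adrenal stress ratios when 1 pair was left out: the log2 range was -0.31 to 0.65 for ENSCAFG00000022709, -0.063 to 0.47 for ENSCAFG00000022711 and -0.11 to 0.26 for MT-ND6. Pseudocount, filters, centring, fits per tissue and other denominators left every call count and share difference on its side of the threshold. Single-gene values, composition values and medians of the nuclear lists were counted together. Of these, 453 kept their side or, for the medians, stayed close to the main value, while 10 gained and 4 lost a p under 0.05. That p was adjusted for single genes and unadjusted for composition. The complex III tissue share, which had not passed after adjustment, lost it by reads (exact permutation p = 0.0857). Counting error of a log2 ratio was 0.07 at most, and each test rests on 4 ratios.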
